A study of Homo sapiens with 10 samples.

Results

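The genes described here encode the sensor kinases, mediators and effector kinases of the replication and DNA damage checkpoint. They are ATR, ATRIP, TOPBP1, RAD1, CLSPN, CHEK1, CHEK2, ATM, WEE1 and PKMYT1. Each was read from the probe set annotated to its symbol alone. By that rule 8 of the 10 genes were measured, out of 14232 genes with such a probe set. ATM and ATRIP lie on probe sets that also carry another symbol and were not analysed here. No gene had more than 1 probe set of its own symbol. CHEK2, PKMYT1 and RAD1 also lie on probe sets shared with another gene, which were not used.

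Cultures of the human osteosarcoma line U2OS were plated at 25% density and left for 30 h (10% serum) before a 4 h exposure to PD0332991 or its solvent DMSO. PD0332991 (palbociclib) inhibits CDK4 and CDK6, the kinases that pair with D-type cyclins. Its labelled dose of 1 mM could not be checked and is doubtful, since micromolar doses are usual. Both groups are the same unmodified line and differ in the compound alone, with 5 biological replicates per treatment according to the labels. Total RNA was hybridised to exon arrays summarised per gene. The array names form 2 sets, with replicates 1 to 3 of both treatments in set 1 and replicates 4 and 5 of both in set 2.

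ATR, bound to its partner ATRIP, is recruited to single-stranded DNA at stalled replication forks, where TOPBP1 and the clamp that contains RAD1 switch it on. Claspin, the product of CLSPN, then brings CHEK1 within reach of ATR, while ATM and CHEK2 form the matching branch at double-strand breaks. Both branches act on the CDC25 phosphatases, and WEE1 and PKMYT1 place the inhibitory phosphates on cyclin-dependent kinases that CDC25 removes. Several of these genes are known E2F targets, transcribed as cells enter S phase once cyclin D-dependent kinases have inactivated RB.

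CLSPN and TOPBP1 are shown by their promoters because both hold an E2F word at the annotated start, and because they form one of the pairs compared below. Each stretch runs 5′ to 3′ and holds the 97 bases before the annotated start and the first 3 bases from it on (RefSeq, GRCh38.p14). CLSPN is chr1:35769976-35770075 and TOPBP1 is chr3:133661939-133662038, both on the minus strand. Capitals mark E2F words and CCAAT boxes, the site of the factor NF-Y.
CLSPN: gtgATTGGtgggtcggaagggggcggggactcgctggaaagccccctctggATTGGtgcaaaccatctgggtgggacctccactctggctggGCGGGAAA
TOPBP1: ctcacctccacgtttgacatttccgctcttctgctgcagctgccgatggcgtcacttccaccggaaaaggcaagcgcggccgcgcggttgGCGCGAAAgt

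The E2F words searched were TTTCCCGC, TTTCGCGC, TTTGCCGC and TTTGGCGC on both strands, in windows of the 250 bases before the start and the first 50 from it on. CLSPN held the word at positions -5 to 3 and TOPBP1 at -7 to 1, counted from the annotated start with no position 0. Of the 8 listed genes with a window in the RefSeq table (CHEK1, CHEK2, ATR, ATRIP, ATM, CLSPN, TOPBP1 and RAD1), these 2 held an E2F word, against 3.99% of all 27305 genes with windows. CCAAT, which shares no base with the E2F matches in the printed stretches, was found in 5 of the 8 and in 39.7% of all genes. A match is a description of letters and not a bound site. WEE1 and PKMYT1 were not matched in that table.

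The arrays were comparable in level, with medians of 6.95 to 7.06 on the log2 scale. Their interquartile ranges ran from 3.18 on DMSO replicate 1 to 3.68 on PD0332991 replicate 3. DMSO replicate 1 stood apart: its median correlation with the other arrays was 0.964, against 0.982 to 0.987 for the rest. Both values are given where leaving it out moved a value by more than 1.5 times or turned its sign. This covers the checkpoint genes, the pairs and the genes named by rule from the pathway lists. Of 10 mesenchymal and osteoblast markers, 9 lay above the median of every array, and COL1A2 lay below it on every array. Of 5 blood and 3 endothelial markers, none lay above it on every array. Of 7 epithelial markers, KRT8 and KRT18 lay above it on every array, and 3 (EPCAM, CDH1 and ESRP1) lay below it on every array. KRT19 and CLDN4 lay above it on some arrays. The mean over the epithelial markers ran from 7.24 to 7.66 in DMSO and from 7.37 to 7.79 after PD0332991. The mean over the mesenchymal markers ran from 10.01 to 10.21 in DMSO and from 10.11 to 10.30 after PD0332991, and the mean over the blood markers from 4.92 to 5.43 and from 4.78 to 5.37. CD14 lay above the median on some arrays, and PTPRC, CD3E, CD4 and HBB lay below it on all. Their part in the results was not tested.

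No checkpoint gene passed the test after 4 h of PD0332991. Of the 8 measured, 0 had a limma adjusted p under 0.05, where 0.05% of the 21980 probe sets did, and 3 (WEE1, CLSPN and PKMYT1) had an unadjusted p under 0.05. All 3 were lower, as were 2.76% of all probe sets at that limit. Counting signs alone, 7 of the 8 genes had values below 0 and ATR had one above, with a median log2 difference of -0.12. Over all probe sets 55.2% were below 0 and the median was -0.02. These are arrays of whole cultures, in which fewer cells of a cell cycle phase and less RNA per cell cannot be told apart.

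**Figure D1:**
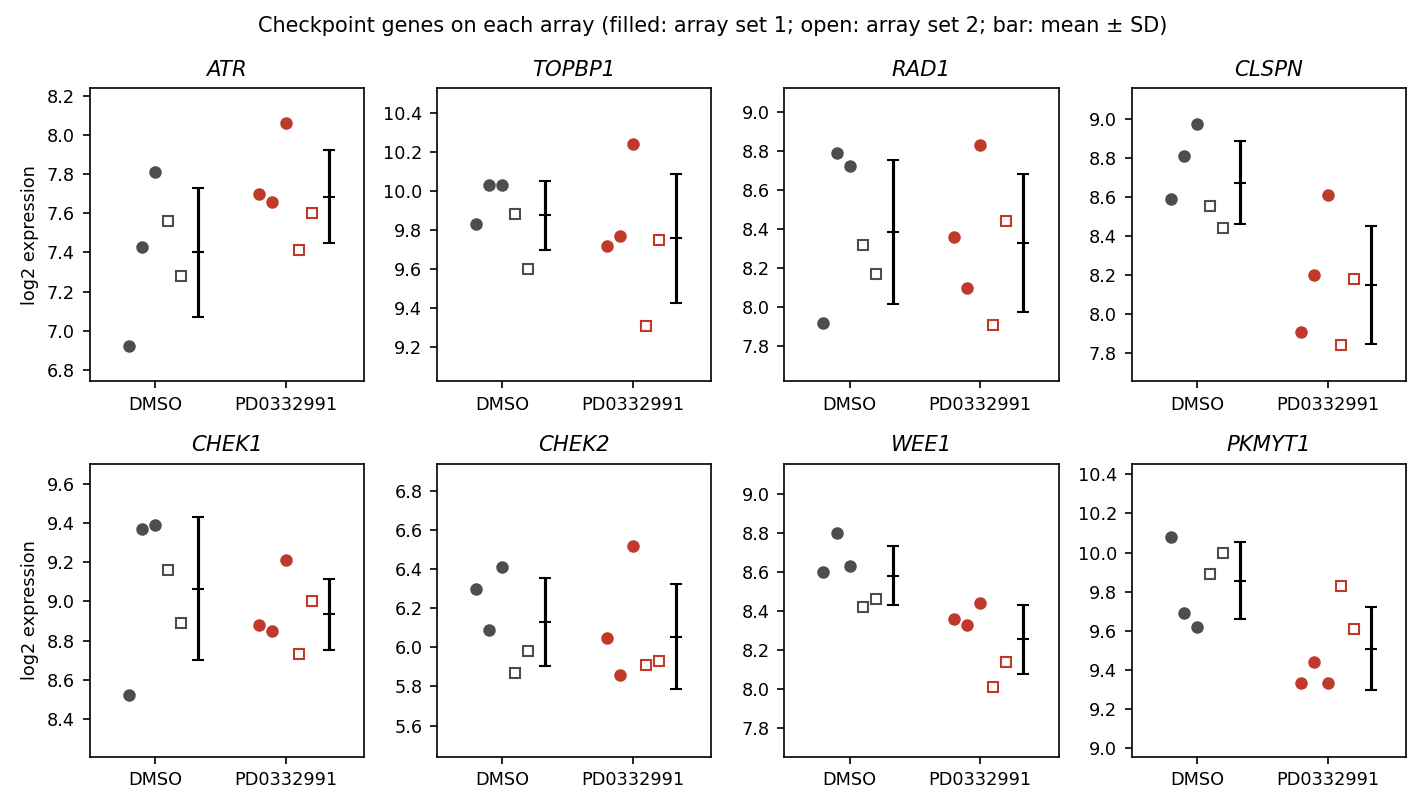
log2 expression of the 8 measured checkpoint genes on each of the 10 arrays, by treatment; filled circles are array set 1, open squares array set 2, and bars the mean ± SD of 5 arrays. Every panel spans the same range of log2 units; WEE1 and PKMYT1 are lower on all treated arrays than on the DMSO arrays of their own set, and in the other 6 genes the treatments overlap in at least 1 set.

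Among the sensors and activators of the 8 genes, ATR differed in sign from the others. The sign was not particular to ATR, since 4 of 13 measured genes of the wider activation list below were above 0, up to 0.31. ATR, the kinase that starts the replication checkpoint, read 6.92, 7.43, 7.81, 7.56 and 7.28 (log2) on DMSO replicates 1 to 5 and 7.70, 7.66, 8.06, 7.41 and 7.60 on PD0332991 replicates 1 to 5. The treatments overlapped, and the lowest value was that of DMSO replicate 1, the array that stood apart. The difference was 0.29 ± 0.17 (SE, n = 5 arrays per treatment), a fold of 1.22 with a 95% interval of 0.93 to 1.59, and did not pass (limma adjusted p = 1.0). It was 0.42 in array set 1 and 0.08 in array set 2, and 0.14 without DMSO replicate 1.

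TOPBP1, which activates ATR, stayed within its spread. It read 9.83, 10.03, 10.03, 9.88 and 9.60 on the DMSO arrays and 9.72, 9.77, 10.24, 9.31 and 9.75 on the treated arrays, in replicate order. The highest and the lowest of its 10 values were both treated arrays. Its difference of -0.11 ± 0.14 on the log2 scale had a 95% interval of -0.42 to 0.19 (limma adjusted p = 1.0), and was -0.05 in array set 1 and -0.21 in array set 2.

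RAD1, a subunit of the checkpoint clamp, had the smallest difference of the 8. Its values were 7.92, 8.79, 8.72, 8.32 and 8.17 in DMSO and 8.36, 8.10, 8.83, 7.91 and 8.44 after treatment, so that each treatment covered nearly the whole range of the other. The log2 difference was -0.05 ± 0.20 (95% interval -0.50 to 0.39, limma adjusted p = 1.0). DMSO replicate 1 was again the lowest DMSO array, and without it the difference was -0.21.

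CLSPN, whose promoter is printed above, had the most negative difference. It read 8.59, 8.81, 8.97, 8.55 and 8.44 on DMSO replicates 1 to 5 and 7.91, 8.20, 8.61, 7.84 and 8.18 on PD0332991 replicates 1 to 5. PD0332991 replicate 3 lay just above DMSO replicate 1 of its set, and the other 4 treated arrays lay below every DMSO array. The mean went from 8.67 ± 0.22 to 8.15 ± 0.30 (SD, n = 5), a difference of -0.52 ± 0.14 (SE), or 1.44-fold lower with a 95% interval of 1.15 to 1.80. CLSPN did not pass (limma unadjusted p = 0.00464, ranked 154 of 21980, and adjusted p = 0.652). The difference was similar in the array sets, at -0.55 in set 1 and -0.48 in set 2.

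The effector kinases of the ATR and ATM branches showed no detectable difference. CHEK1, the kinase that ATR activates, read 8.52, 9.37, 9.39, 9.16 and 8.89 in DMSO and 8.88, 8.85, 9.21, 8.73 and 9.00 after treatment. The treated arrays all lay inside the DMSO range, whose lower end was DMSO replicate 1. The log2 difference was -0.13 ± 0.18 (95% interval -0.52 to 0.26, limma adjusted p = 1.0). Without DMSO replicate 1 it was -0.29 and limma's unadjusted p was 0.0347 (adjusted p = 0.771).

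CHEK2, the effector kinase of ATM, was dim, and on every array it lay below that array's median. It read 6.30, 6.09, 6.41, 5.87 and 5.98 in DMSO and 6.05, 5.86, 6.52, 5.91 and 5.93 after treatment, with treated arrays at both ends of the range. The log2 difference was -0.08 ± 0.13 (95% interval -0.37 to 0.21, limma adjusted p = 1.0). Dim values are compressed by the summary of probes, so this interval bounds the difference on the array's scale.

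Both kinases that place the inhibitory phosphates on cyclin-dependent kinases were lower within each array set, without passing over all probe sets. WEE1, the nuclear one of the pair, read 8.60, 8.80, 8.63, 8.42 and 8.46 on DMSO replicates 1 to 5 and 8.36, 8.33, 8.44, 8.01 and 8.14 on PD0332991 replicates 1 to 5. Over all arrays only PD0332991 replicate 3, at 8.44, reached into the DMSO range, above DMSO replicate 4 of the other set. The difference was -0.33 ± 0.09 (SE, n = 5), 1.26-fold lower with a 95% interval of 1.10 to 1.43. WEE1 had the smallest p of the 8 genes, ranked 106 of 21980, and did not pass (limma unadjusted p = 0.00308, adjusted p = 0.635).

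PKMYT1, the membrane-bound relative of WEE1, read 10.08, 9.69, 9.62, 9.89 and 10.00 in DMSO and 9.33, 9.44, 9.33, 9.83 and 9.61 after treatment. DMSO replicate 1, the lowest DMSO array in ATR, CHEK1 and RAD1, was the highest here. The difference was -0.35 ± 0.11 (SE, n = 5), 1.27-fold lower with a 95% interval of 1.07 to 1.52 (limma unadjusted p = 0.0122, adjusted p = 0.929). It was -0.43 in array set 1, -0.22 in array set 2 and -0.26 without DMSO replicate 1. WEE1 and PKMYT1 were the 2 genes of the 8 whose treated arrays all lay below the DMSO arrays of their own set. That order was found in 1.45% of all probe sets.

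**Figure D2:**
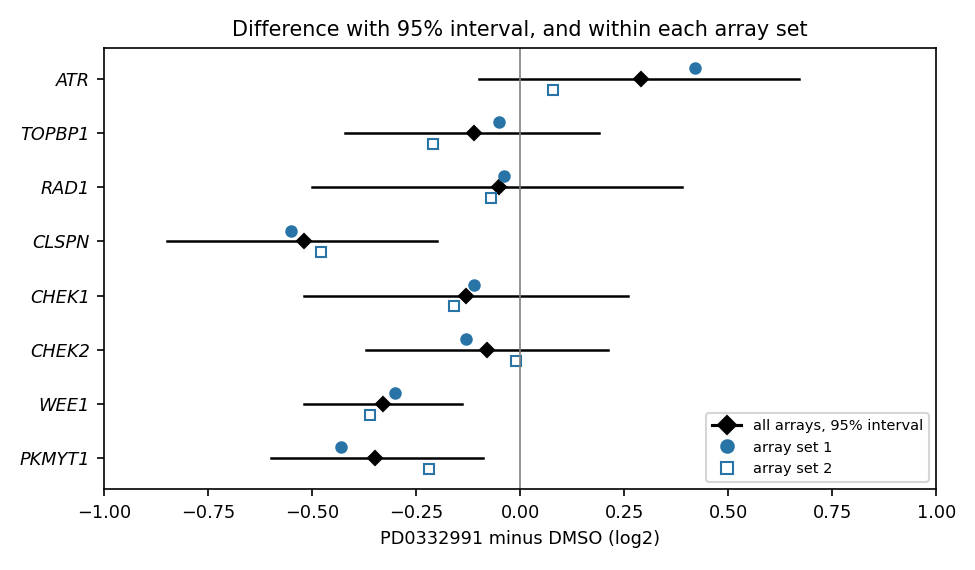
Difference between PD0332991 and DMSO on the log2 scale for the 8 genes; diamonds with lines are the limma estimate over all arrays with its 95% interval, circles and squares the difference within array set 1 and array set 2. The intervals of CLSPN, WEE1 and PKMYT1 lie below 0 and the other 5 include 0; the 3 intervals are not adjusted for the number of probe sets tested.

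For none of the 8 genes was a difference between array sets detected. An interaction of treatment and array set, tested with limma, passed 0 of 21980 probe sets (0%), with 562 at an unadjusted p under 0.05. The largest departure among the 8 was ATR, whose difference was 0.34 lower in set 2 than in set 1, written as -0.34 ± 0.36 (SE, limma unadjusted p = 0.368).

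Of 5 planned comparisons of genes with related roles, the 3 without ATM and ATRIP could be made. In each, the difference between both genes' log2 values was taken within every array, and its change with treatment was tested by an exact 2-sided permutation of treatment within array sets (120 assignments, smallest possible p 0.0167). The height of such a difference has no meaning across probe sets and only its change is read. For CLSPN against TOPBP1 the change was -0.41 on the log2 scale, with a 95% interval of -0.59 to -0.23 from a linear model with array set. CLSPN minus TOPBP1 ran from -1.33 to -1.06 in DMSO and from -1.82 to -1.47 after treatment, so that all 5 treated arrays lay below all 5 DMSO arrays. The exact p was 0.0167, the smallest possible, and 0.05 after Benjamini-Hochberg adjustment over the 3 pairs, which is at the threshold and does not pass it. With this number of assignments 1 pair alone could not pass, however large its change, so the failure to pass decides nothing. The adjustment had been planned over 5 pairs, which would be stricter. The change was -0.50 in array set 1 and -0.27 in array set 2. Without PD0332991 replicate 5 it was -0.42, with an exact p of 0.0333 (adjusted 0.1).

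For CHEK1 against CHEK2 the change was -0.05 (95% interval -0.55 to 0.44, exact p = 0.867). It was -0.23 without DMSO replicate 1 (exact p = 0.15). The interval over all arrays allows either gene to differ from the other by more than the whole CLSPN to TOPBP1 difference. For WEE1 against PKMYT1 it was 0.02 (95% interval -0.31 to 0.34, exact permutation p = 0.833, and 0.867 adjusted for both pairs). Without DMSO replicate 1 its sign turned, at -0.09 (exact p = 0.4). These intervals bound the differences and do not show that the paired genes respond alike.

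**Figure D3:**
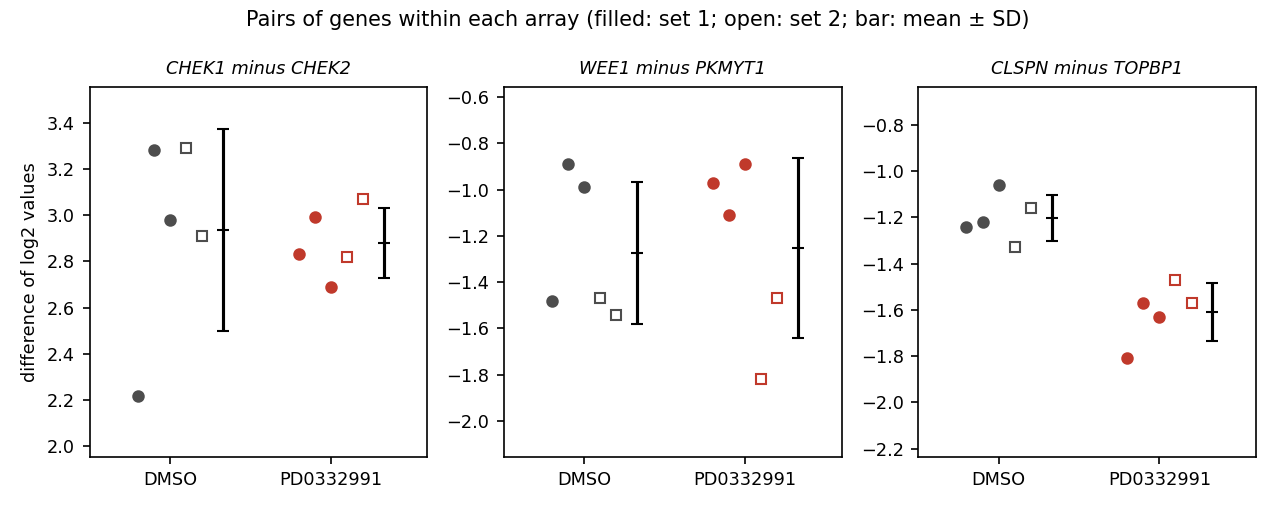
Difference between the log2 values of 2 genes on the same array, by treatment, for the 3 pairs; filled circles are array set 1, open squares array set 2, and bars the mean ± SD of 5 arrays. In CLSPN minus TOPBP1 the treatments do not overlap (-1.33 to -1.06 in DMSO, -1.82 to -1.47 treated), while in the other pairs they do.

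The genes that load and feed the ATR pathway gave no call. Of 17 genes listed for ATR activation and clamp loading, 13 were measured, 9 with values below 0 and 4 above, with a median of -0.10, and 0 passed. RFC4, RFC5 and RFC3, subunits of clamp loaders, had log2 differences of -0.40 ± 0.11, -0.32 ± 0.12 and -0.25 ± 0.13 (SE), and RPA2, a subunit of the single-strand binding protein RPA, had -0.26 ± 0.12. RFC4 had the smallest limma p of the list (unadjusted 0.00466, adjusted p = 0.652), and its treated arrays all lay below the DMSO arrays of their set.

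The ATM and double-strand break list likewise gave no call among 13 measured of 16, with 8 values below 0, 5 above and a median of -0.07. H2AX, the histone variant phosphorylated around breaks, had -0.47 ± 0.13 (limma adjusted p = 0.652). As in RFC4, all its treated arrays lay below the DMSO arrays of their set, an order found in 1.45% of all probe sets. BARD1 and BRCA1, partners in a ubiquitin ligase, had -0.40 ± 0.14 and -0.39 ± 0.15. XRCC6, a subunit of the end-binding Ku protein, had -0.25 ± 0.17, and -0.12 without DMSO replicate 1. Its sign turned between the array sets, at -0.45 in set 1 and 0.06 in set 2. Like CHEK2 it was dim, with values of 5.29 to 6.34, below the median of every array.

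In the wider pathway 4 genes (CDC25A, CCNE1, CCNE2 and DTL) passed, all of them lower. With the replicate number as a block none of the 4 passed, with limma adjusted p of 0.0786, 0.0621, 0.0623 and 0.196 in that order, and none passed in either array set alone. The lists were drawn up with earlier results of these arrays known, so their counts are no independent evidence. Of 13 listed genes of the CDK switch, 12 were measured, and CDC25A, CCNE1 and CCNE2 passed, all lower, where 0.0409% of all probe sets were called lower. CCNE2 had the most negative difference of the list, at -1.89 ± 0.20 (SE), and CCNE1 had -0.95 ± 0.10 (limma adjusted p = 0.00911 for each). CDC25A, the phosphatase that CHEK1 marks for destruction, fell from 8.92 ± 0.12 to 7.83 ± 0.32 (log2, SD, n = 5), a change of -1.09 ± 0.11 (SE, limma adjusted p = 0.00911). WEE1, which acts against CDC25A on the same phosphates, stood at -0.33 beside it. CDK2 had -0.21 ± 0.14, and -0.33 without DMSO replicate 1, its lowest DMSO array. The median of the 12 genes was -0.13, with 11 below 0. The other members, among them PLK1, AURKA, CDK1, CCNA2 and the B-type cyclins, ran from -0.18 to 0.10 and did not pass. With 1 array left out, CDC25A, CCNE1 and CCNE2 each kept their calls without DMSO replicates 1, 2 or 3 or PD0332991 replicates 2 or 3, and lost them without any 1 of the other 5 arrays (limma adjusted p up to 0.059).

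Of 17 listed genes of checkpoint turnover and recovery, 14 were measured, 6 below 0 and 8 above, with a median of 0.05. DTL, the substrate receptor of a ubiquitin ligase of S phase, passed as lower (-1.15 ± 0.16, limma adjusted p = 0.0499). That call held without DMSO replicate 1 and was lost without any other 1 array (adjusted p up to 0.255). FBXW11, a β-TrCP protein of the ligase family that degrades claspin, WEE1 and CDC25A, had 0.20 ± 0.09, with all treated arrays above the DMSO arrays of their set, an order found in 0.814% of all probe sets (limma adjusted p = 1.0). USP1, a deubiquitinase, had -0.25 ± 0.20, and -0.42 without DMSO replicate 1. FZR1, an activator of the anaphase-promoting complex, had -0.14 ± 0.11. Among 5 measured 14-3-3 genes, whose proteins hold phosphorylated CDC25 in place, 4 were above 0 and 0 passed. SFN had -0.24 ± 0.10, YWHAB 0.07 ± 0.08, YWHAZ 0.13 ± 0.21 and YWHAG 0.03 ± 0.10. In array sets 1 and 2, YWHAZ was at -0.09 and 0.46, SFN at -0.13 and -0.41, YWHAB at 0.07 and 0.06, and YWHAG at 0.07 and -0.03. Without DMSO replicate 1, YWHAZ was at 0.03 and YWHAG at -0.01.

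**Figure D4:**
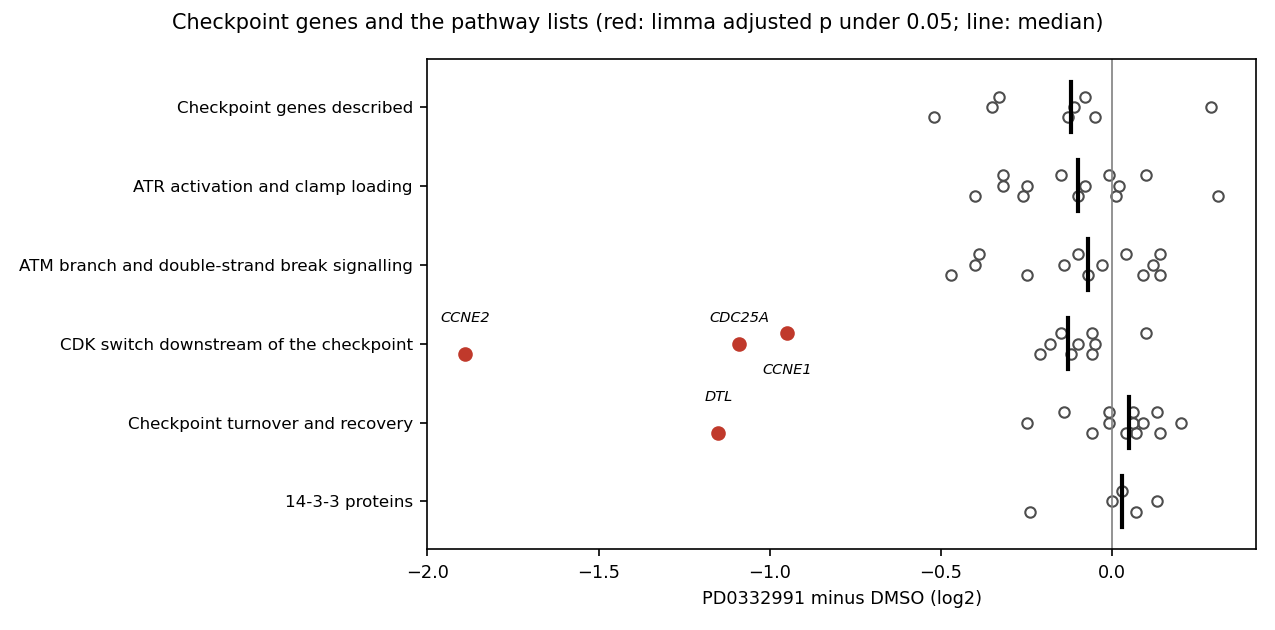
Difference between PD0332991 and DMSO (log2) of every measured gene in the checkpoint group and in the 5 pathway lists, 1 circle per gene; filled red circles passed limma's adjusted p of 0.05 and thick lines are list medians. The named red genes CCNE2, CDC25A, CCNE1 and DTL lie between -1.89 and -0.95, below every checkpoint gene described, whose lowest is CLSPN at -0.52.

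The genes whose pattern was most like that of WEE1, the gene with the smallest p, were LIMK2, SLBP, UBE2T, SKP2 and CDC6. LIMK2 is a kinase of the actin cytoskeleton, SLBP binds the stem-loop of histone messages, UBE2T is a ubiquitin-conjugating enzyme of interstrand crosslink repair, SKP2 is a ubiquitin ligase subunit and CDC6 loads the replicative helicase. Their Pearson correlations with WEE1 were 0.967, 0.962, 0.955, 0.954 and 0.953 over the 10 arrays after each array set's mean was subtracted. The arrays share the treatment contrast, which is part of these values. LIMK2 had a log2 difference of -0.43 and CDC6 one of -0.68, and none of the 5 passed (limma adjusted p from 0.111 to 0.782). The 5 were set by number: the next 3 in order, FAM111B, CDC25A and DTL, had correlations of 0.952, 0.949 and 0.947 and did pass as lower, with log2 differences of -1.78, -1.09 and -1.15 (limma adjusted p = 0.00997, 0.00911 and 0.0499). FAM111B is named here after its values were seen.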

How the data were processed

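The authors deposited log2 expression values for gene-level probe sets, with each replicate array kept apart. RMA, Partek and hg18 are listed in the submitters' processing notes, with no version. RMA compresses differences of dim genes. No detection calls were used. Probe sets were named through the platform annotation, checked by Entrez identifier against RefSeq (GRCh38.p14); 14432 of 21980 carried 1 symbol, 2408 several and 5140 none.

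The treatments were compared by a 2-sided moderated test in limma 3.58.1 (R 4.3.3) that held the array set in the model; p-values were adjusted by Benjamini-Hochberg across every probe set, with 0.05 as threshold. The procedure was tested on simulated data. Array sets were read from the array names in the labels. The number of arrays limits the precision. All 10 listed genes are named, with the genes of each pathway list that passed or had its 4 smallest p. The genes and lists were chosen with earlier results of these data known, so no test over a list is given. Alternatives changed the covariate, normalization, filter, moderation and weights, or left out arrays. Same-numbered arrays had no shared label beyond the number, and correlations of their deviations from the group means ran from 0.035 to 0.541, so they were not treated as pairs. Figures used Matplotlib 3.10.9 under Python 3.11.15.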

Additional observations from a re-analysis of the deposited data

Results flagged for a closer look

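Among the 28 genes named by rule, each treatment's 5 arrays were screened for 1 array far from the rest, and 4 of 56 groups met the limit, where chance alone gives about 1 in 20. DMSO replicate 1 was the array in 3 of them: it read 9.67 for RFC3 against 10.09 on the nearest DMSO array, 9.94 for CDK2 against 10.49, and 11.21 for YWHAB against 11.29 (log2). For CCNE1, PD0332991 replicate 3 read 9.41, against 9.18 on the nearest treated array. None of the 8 checkpoint genes had such an array.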

How the results depend on the processing

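The count of checkpoint genes past the threshold was 0 in all 22 alternatives (limma). Over these, the smallest adjusted p was 0.0618 for WEE1 and 0.0945 for CLSPN, both with array weights. WEE1, CLSPN, PKMYT1, CHEK1, TOPBP1 and ATR kept their sign in all 22. With 1 array left out, WEE1 ran from -0.35 to -0.30, CLSPN from -0.62 to -0.43, PKMYT1 from -0.40 to -0.26, CHEK1 from -0.29 to -0.05, ATR from 0.14 to 0.38, CHEK2 from -0.17 to 0.01, TOPBP1 from -0.21 to -0.03 and RAD1 from -0.21 to 0.03, so CHEK2 and RAD1 changed sign.

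Probe sets called higher and lower numbered 2 and 9. They were 1 and 8 without the array set, 1 and 7 after centring on the median, 4 and 14 over single-symbol probe sets, 13 and 50 with array weights, and 0 and 0 in either array set alone. With 1 array left out they ran from 1 to 3 and from 1 to 20; the lower count was 20 without DMSO replicate 1, 5 without PD0332991 replicate 2 or 3, and 1 without DMSO replicate 4 or 5 or PD0332991 replicate 1, 4 or 5. The replicate number as a block gave 1 and 1, and 0 checkpoint genes; 2 of the 5 DMSO arrays correlated best with the treated array of their own number. The interaction gave 0 calls in all 11 alternatives.

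CLSPN against TOPBP1 passed without array sets (-0.41, exact permutation p = 0.00794, adjusted 0.0238). Treatment was then permuted over all arrays, which allows smaller p-values at the same change. Under the replicate block the pair had an exact p of 0.0625, the smallest possible there (adjusted 0.188). With 1 array left out its change ran from -0.46 to -0.36. The exact p was 0.0333 (adjusted 0.1) without PD0332991 replicate 5 and 0.0167 (adjusted 0.05) without any other. Fewer assignments exist with 1 array left out, and 0.0167 is the smallest possible p there too. So 1 pair alone could not pass in these fits, and the equal p-values do not measure stability. CHEK1 against CHEK2 ran from -0.23 to 0.06 and WEE1 against PKMYT1 from -0.09 to 0.10. No checkpoint gene had a second probe set of its own to try, and the shared probe sets of CHEK2, PKMYT1 and RAD1 were not tried.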

Other observations

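Across the 28 pairs of measured checkpoint genes, the Pearson correlation over the 10 arrays, after each array set's mean was subtracted, ran from -0.87 to 0.93. The values share arrays and the treatment contrast and are a description. The highest was CHEK1 with RAD1 (0.93, and 0.88 over 9 arrays without DMSO replicate 1), followed by WEE1 with CLSPN (0.85 both ways). The lowest was ATR with PKMYT1 (-0.87, and -0.66 without DMSO replicate 1). CHEK1 with CLSPN went from 0.62 to 0.92 when DMSO replicate 1 was left out, and CHEK1 with PKMYT1 from -0.33 to 0.43.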
